A study of Saccharomyces cerevisiae with 2 samples.

Results

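Chromosome 3 of the budding yeast Saccharomyces cerevisiae was described in 317 bins of 1 kb, out of 12041 bins on the 16 nuclear chromosomes. All tags placed on chromosome 3 were used, together with 3 windows of 4 kb that approximately hold its mating-type loci: HML (11 to 15 kb from the left end), MAT (198 to 202 kb) and HMR (292 to 296 kb). Coordinates are those of the deposited files, build sacCer1. The tags came from mononucleosomal DNA of a strain carrying MYC-tagged Pho4, with the marker TRP1, and HA-tagged Cbf1, with the marker LEU2. Pho4 activates genes of phosphate starvation and Cbf1 binds the same core DNA motif. Starvation cells were kept in 0 mM phosphate for 80 minutes after 3 hours without phosphate, and high phosphate cells went through the same 3 hours and then received 10 mM phosphate for 80 minutes. The study compared nucleosome maps at these phosphate levels. With 1 library for each condition, effects of phosphate and of the library cannot be told apart, and no p-value is given.

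Haploid yeast cells have mating type a or alpha, set by which allele lies at MAT, the expressed locus. HML and HMR hold silent copies of the alpha and a information, are kept silent by the Sir proteins, and serve as donors when cells switch mating type. The MAT and HML copies of the alpha genes, and flanking segments shared by the 3 loci, are nearly identical in sequence. A short tag from a shared segment has more than 1 possible origin, and the deposited files list only tags with a unique placement. In the gene order of assembly R64, used here for names only, MAT holds MATALPHA2 and MATALPHA1, HML holds HMLALPHA2 and HMLALPHA1, and HMR holds HMRA2 and HMRA1. The alpha2 and a1 proteins are repressors and alpha1 is an activator of alpha-specific genes. MAT has on its left BUD5, which acts in bud-site selection, and beyond it PHO87, a low-affinity phosphate transporter. To the right of HMRA1 come a tRNA gene and GIT1, a transporter of glycerophosphoinositol known to be induced by phosphate starvation. The mating type of the strain is not given in the sources used here.

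The starvation library placed 29710 tags on chromosome 3 (93.8 tags per kb) and the high phosphate library 68684 (217 tags per kb). They were 2.97% of 1001229 nuclear tags in starvation and 2.64% of 2598022 in high phosphate. Scaled to nuclear tags, the whole chromosome had a log2 ratio (starvation over high phosphate) of 0.17 (95% exact conditional binomial interval 0.15 to 0.19, which covers counting error only, as do all intervals here). This ratio was the 2nd highest of the 16 chromosomes, after chromosome 1 at 0.21, and above chromosome 6, the other chromosome of similar length, at 0.099. Short chromosomes had the higher ratios. Chromosomes 9, 8 and 5, next in length, stood at 0.11, 0.084 and 0.090, and all longer ones lay between −0.079 and 0.069.  The median bin of chromosome 3 nevertheless had a log2 ratio of −0.11, and 44.3% of its bins were above 0. The median bins of the other 15 chromosomes lay between −0.30 and −0.055. The share of bins above 0 on these others was 35.6% to 48.2%, with a median of 38.5%. Most bins were thus below 0 on every chromosome, chromosome 3 included, while chromosome 3 as a whole was above 0.

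The starvation library varied more from bin to bin, on chromosome 3 as on the other 15. Over the 305 bins with at least 20 tags in both libraries together, the coefficient of variation of the tag count was 62.3% in starvation and 27.2% in high phosphate. On the other 15 chromosomes it was 52.5% to 66.8% in starvation and 21.3% to 35.8% in high phosphate. The log2 ratio, with 0.5 tags added to each count, had an SD of 0.73 over the 305 bins of chromosome 3. The SD was lower on 14 of the other 15 chromosomes, whose range was 0.65 to 0.76. Neighbouring bins were alike: the log2 ratios of adjoining bins correlated at r = 0.54 over 300 pairs on chromosome 3, the highest of the 16 chromosomes. The other 15 chromosomes ranged from 0.26 to 0.54, with a median of 0.35. Adjoining bins share libraries and, at their border, fragments, so these coefficients are descriptions.

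**Figure D1:**
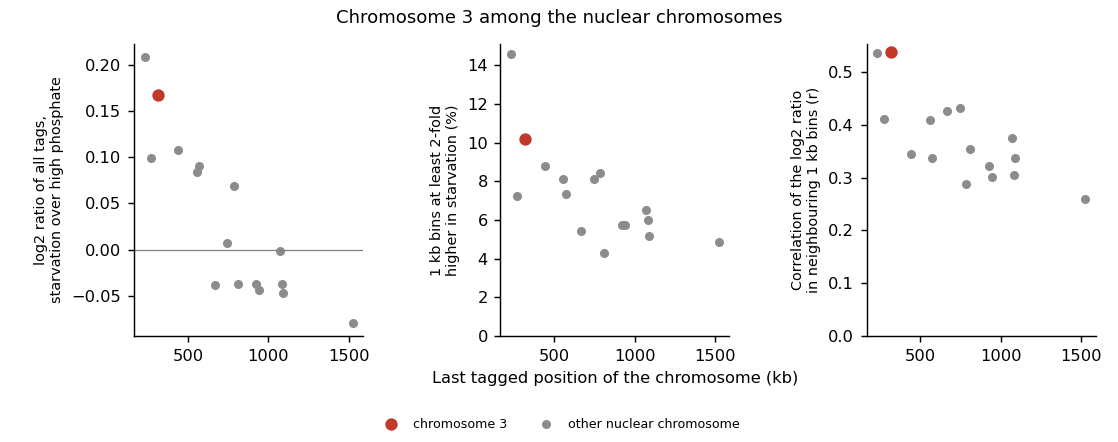
Values of the 16 nuclear chromosomes against chromosome length, taken as the last position with a tag, in kb: the log2 ratio of all tags (starvation over high phosphate), the percent of bins in which starvation was at least 2-fold higher, and the correlation of log2 ratios in neighbouring bins. Chromosome 3 (large point) stands at 0.17, 10.2% and 0.54, close to chromosome 1 in the left and right panels.

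Starvation was at least 2-fold higher in 31 of the 305 bins (10.2%) and at least 2-fold lower in 26 (8.52%). Over 11560 bins of all 16 chromosomes the shares were 6.46% higher and 8.82% lower. The share of higher bins was the 2nd largest of the 16 chromosomes, after chromosome 1 with 14.6%, and chromosome 6 had 7.22%. The share of lower bins was close to that of all bins. Ratios were also scaled so that the median 10 kb bin stood at 0, which raises every log2 ratio by 0.062. The counts on chromosome 3 then became 38 higher (12.5%) and 21 lower (6.89%), beside 7.61% and 6.78% over all bins. The share of higher bins among those counted on chromosome 3 moved to 64.4%, from 54.4%.

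Along the chromosome the log2 ratio was high in a left and a right stretch, low at the ends and mixed between the stretches. Among 16 windows of 20 kb, 8 had an interval above 0 and 7 an interval below 0. From the left end, the windows starting at 1 and 20001 had log2 ratios of −0.31 and −0.17. The windows starting at 40001 and 60001 stood at 0.67 and 0.70, and the next, at 80001, at −0.036. The left peak was thus bounded on its left by values below 0. On its right the interval, −0.13 to 0.057, included 0, in a window with 6624 tagless bp. With scaling to the median 10 kb bin, 9 of the 20 kb windows were above 0, against 8. The windows from 100001 to 140000 were slightly above 0, at 0.20 and 0.096. The 3 windows from 140001 to 200000, left of and partly including MAT, were below 0, at −0.26, −0.12 and −0.50. The 3 windows from 200001 to 260000, of which the first begins inside the MAT window, stood at 0.42, 0.64 and 0.36. The value then declined to 0.14 in the window starting at 260001, and to −0.34 and −0.27 in the last 2 windows, the first of which holds HMR. Both silent loci lie in windows below 0. The change near MAT lay to its right: the 5 bins from 201001 to 206000 had log2 ratios of −0.94 to −0.43, the bin starting at 206001 stood at −0.011 and the bin starting at 209001 at 1.09.

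**Figure D2:**
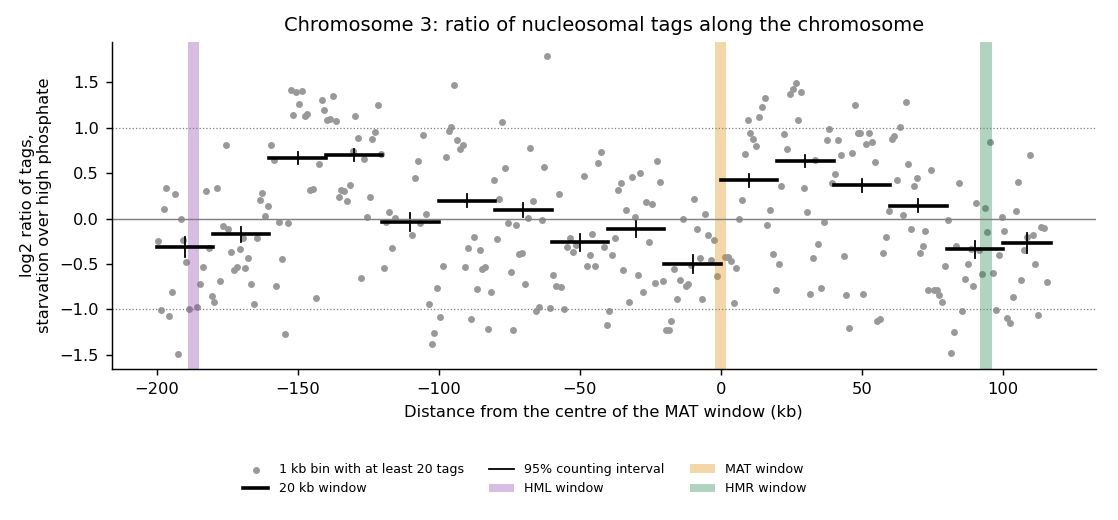
The log2 ratio of tags, starvation over high phosphate, along chromosome 3 by distance from the centre of the MAT window in kb. Grey points are 1 kb bins with at least 20 tags, black bars are 20 kb windows with 95% counting intervals, dotted lines mark 2-fold differences and shaded bands mark HML, MAT and HMR. The 20 kb windows peak at 0.70 left of MAT and 0.64 right of it, and reach −0.50 just left of MAT.

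Much of the excess of chromosome 3 lay in a left stretch from 40001 to 80000 and a right stretch from 200001 to 260000. Their limits were chosen after the values had been seen, and the excess was not confined to them. Outside both, the 10 kb windows starting at 100001 and 260001 had log2 ratios of 0.65 (0.55 to 0.74) and 0.59 (0.49 to 0.69). Inside the right stretch, the 10 kb windows starting at 200001 and 250001 stood at only 0.049 and 0.19. In the left stretch the bins held 39, 154.5 and 294 tags in starvation (lowest, median and highest) and 127, 244 and 367 in high phosphate. The median bin was 2.09 times the median nuclear bin of its library in starvation and 1.08 times in high phosphate. The starvation library therefore departed from its typical density, while the high phosphate library stayed near it. The log2 ratio was 0.69 (0.64 to 0.73), and 33 of 40 bins were above 0. In the right stretch the bins held 33, 131 and 267 tags in starvation and 152, 244 and 350 in high phosphate, or 1.77 and 1.08 times the median nuclear bin. The log2 ratio was 0.48 (0.44 to 0.52), with 36 of 59 bins above 0. These 2 stretches held 25 of the 31 bins at least 2-fold higher, 15 on the left and 10 on the right, and 4 of the 26 at least 2-fold lower. Outside them the rest of chromosome 3 had a log2 ratio of −0.11 (−0.13 to −0.079). Of its 206 bins, 66 were above 0, 6 at least 2-fold higher and 22 at least 2-fold lower. With scaling to the median 10 kb bin that log2 ratio was −0.043.

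**Figure D3:**
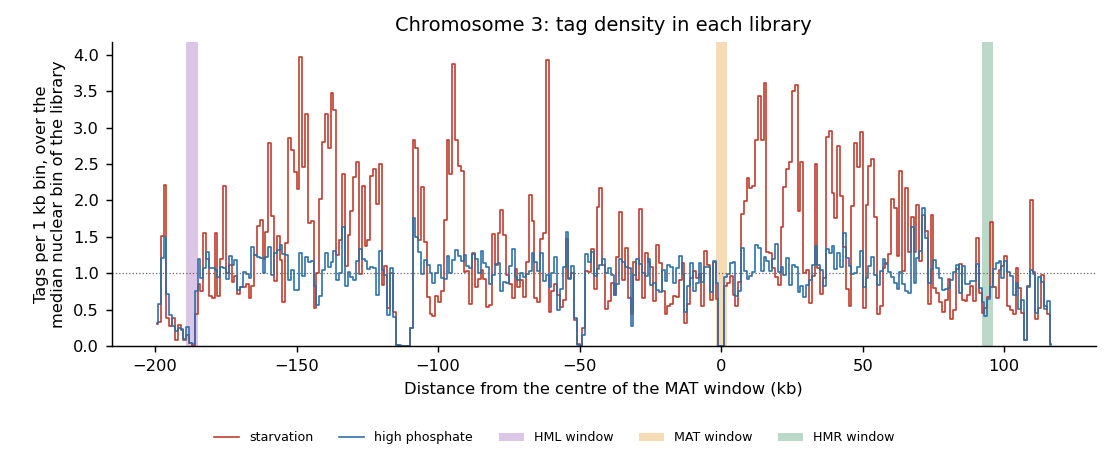
Tags per 1 kb bin of chromosome 3, divided by the median nuclear bin of each library (74 tags in starvation, 225 in high phosphate), by distance from the centre of the MAT window in kb. In the 270 bins free of tagless stretches, starvation reaches 3.97 times its median and high phosphate ranges from 0.471 to 1.90 times; density falls to 0 at tagless stretches such as the centre of the MAT window.

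Higher bins stood in runs and lower bins mostly did not. In the 7 kb run from 47001 to 54000, bins held 160, 199 and 294 tags in starvation (lowest, median and highest) and 173, 216 and 289 in high phosphate, although the starvation library held fewer tags in all. The run from 58001 to 64000 held 149, 221.5 and 257 tags in starvation and 156, 252.5 and 295 in high phosphate. Its log2 ratio was 1.18 (1.07 to 1.29). In the run from 224001 to 229000 the totals were equal, 1035 tags in starvation and 1035 in high phosphate, which is a log2 ratio of 1.38 (1.25 to 1.50). Of the 31 higher bins, 21 belonged to 4 runs of at least 3 kb. Of the 26 lower bins, 3 did, all in the run from 180001 to 183000, where bins held 33, 41 and 43 tags in starvation and 203, 246 and 252 in high phosphate (log2 ratio −1.21, −1.50 to −0.92). This run lies left of MAT in the lowest 20 kb window. The next longest lower runs spanned 2 kb, from 281001 (65 starvation and 435 high phosphate tags) and from 97001 (64 and 420 tags). The asymmetry was not particular to chromosome 3. Among runs of any length on all nuclear chromosomes, 56 of 523 higher runs and 21 of 870 lower runs reached 3 kb. On chromosome 3 these counts were 4 of 13 and 1 of 19.

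The 5 bins with the strongest excess in starvation, ranked by the interval bound nearest to 0, were not all in the 2 stretches. The first, from 138001 to 139000, held 291 starvation tags and 219 high phosphate tags, a log2 ratio of 1.79 (1.53 to 2.05). It lies between the stretches, as does the bin from 105001 to 106000 with 286 and 267 tags (1.47, 1.23 to 1.72). The bins starting at 226001, 225001 and 51001 had log2 ratios of 1.49, 1.43 and 1.40 and lie in the runs above. All 5 held 3.5 to 3.97 times the median bin in starvation and 0.973 to 1.28 times in high phosphate.

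The 5 bins with the strongest deficit in starvation were spread over the chromosome. The first, from 281001 to 282000, held 28 starvation tags and 205 high phosphate tags, a log2 ratio of −1.50 (−2.12 to −0.92). The others started at 97001, 45001, 126001 and 181001, and their log2 ratios were −1.39, −1.29, −1.23 and −1.24. The bin at 45001, with 45 starvation tags and 285 high phosphate tags, ends 1 kb before the 7 kb run of higher bins begins. Together the 5 bins held 0.378 to 0.662 times the median bin in starvation and 0.911 to 1.33 times in high phosphate. Both kinds of bin thus differed mainly through the starvation library.

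Sequence without unique tags bounded what could be seen at the mating-type loci. On chromosome 3, 58 stretches of at least 100 bp held no tag start on either strand in either library, 23840 bp or 7.53% of the chromosome. The other 15 chromosomes ranged from 1.45% to 18.4%. The longest stretch on chromosome 3 was 4006 bp, outside the 3 windows, and 8 stretches reached 500 bp. At MAT a single stretch of 2471 bp, from 198680 to 201150, covered most of the window. At HML the region from 11514 to 14028, 2515 bp long, was broken by a few tag starts, 4 in starvation and 13 in high phosphate. At HMR there were 2 shorter stretches, of 715 bp (292997 to 293711) and 205 bp (294381 to 294585). The long tagless regions of MAT and HML were of nearly equal length, and HMR kept tags between its 2 stretches. The mating type is not given, and with the a allele at MAT, tags of that allele could be placed at HMR. Whether the tags between the HMR stretches come from HMR alone was not tested. A stretch without tags says nothing about nucleosomes there, because absence from the genome of this strain, lack of unique sequence and lack of nucleosomal DNA look alike in these files.

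**Figure D4:**
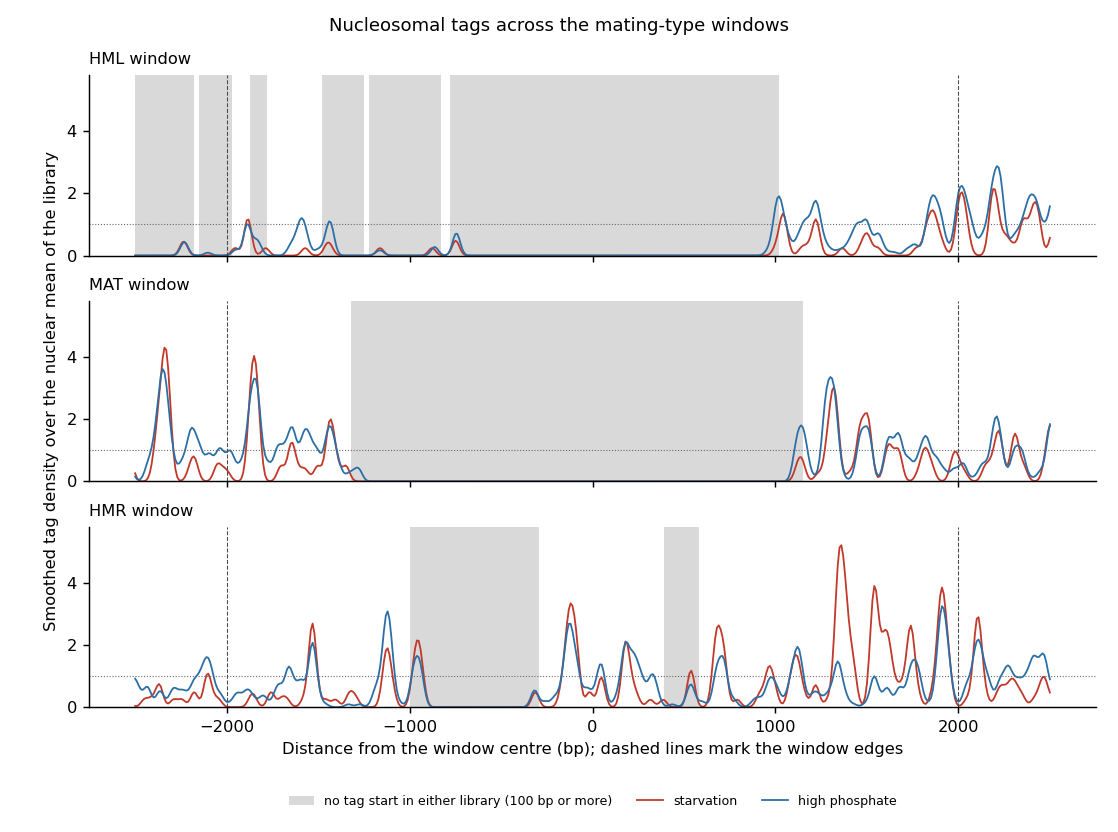
Density of moved tags, smoothed with a Gaussian SD of 20 bp and divided by the nuclear mean of each library, against the distance in bp from the centre of the HML, MAT and HMR windows. Grey bands are stretches of at least 100 bp without tag starts, and dashed lines mark the window edges. Most peaks coincide at MAT, HML is low in starvation, and the right part of HMR has peaks of 5.23 and 3.91 in starvation where high phosphate reaches 1.47 and 0.995.

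The HML window was lower in starvation than the rest of the chromosome. Its 4 bins held 11, 3, 0 and 33 tags in starvation and 59, 11, 7 and 170 in high phosphate. Both inner bins fell under the minimum of 20 tags, and the interval of the bin with 0 starvation tags reached up to a log2 ratio of 0.85. In the window as a whole there were 47 starvation tags and 247 high phosphate tags, a log2 ratio of −1.02 (−1.50 to −0.56). Relative to chromosome 3 outside the 3 windows, with a log2 ratio of 0.17 (0.15 to 0.19), the difference was −1.19 (−1.67 to −0.74). Among 290 other 4 kb windows of chromosome 3 with at least 80 tags, which overlap because they start at every kb, 4 had a lower ratio. The 972 bp to the right of the tagless region, from 14029 to 15000, were counted by tag starts that were not moved. They held 37 starvation and 181 high phosphate tags (log2 ratio −0.91, −1.47 to −0.40), so these counts differ from those of the last bin. The deficit was thus also present where tags could be placed densely. The 4 kb on the right of the window had a log2 ratio of −0.27 (−0.46 to −0.091), which does not reach the interval of HML. Of the bins there, those starting at 15001, 16001 and 18001 stood at −0.72, −0.54 and −0.33, with intervals that overlap that of HML. Only the bin at 17001, at 0.30 (−0.031 to 0.63), did not overlap. The 4 kb on the left had a log2 ratio of −0.45 (−0.93 to 0.0037), which overlaps the interval of HML. HML was thus not distinguishable from its left side or from the nearest bins on its right.

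The MAT window was lower in starvation by a smaller amount. Its outer bins held 48 and 61 tags in starvation and 195 and 214 in high phosphate, and its 2 inner bins held 0 tags in each library. The log2 ratio was −0.53 (−0.85 to −0.22), or −0.70 (−1.02 to −0.40) relative to the rest of chromosome 3. By unmoved tag starts the log2 ratio was similar on both sides of the tagless stretch. On the left it was −0.61 (−1.10 to −0.15), with 48 starvation and 190 high phosphate tags. On the right it was −0.47 (−0.91 to −0.047), with 59 and 212. Of the 290 overlapping 4 kb windows elsewhere on the chromosome, 37 had a lower ratio, and the adjoining 4 kb had log2 ratios of −0.18 on the left and −0.60 on the right. The intervals of both sides, −0.37 to 0.0068 and −0.81 to −0.38, overlap that of MAT, which was thus not distinguishable from its surroundings.

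The HMR window was not distinguishable at this depth from chromosome 3 as a whole but was higher than the sequence on either side of it, and its bins differed. They held 34, 39, 50 and 126 tags in starvation and 136, 94, 145 and 182 in high phosphate. The window total was 249 starvation tags and 557 high phosphate tags, with a log2 ratio of 0.21 (−0.0073 to 0.43) and a difference from the rest of chromosome 3 of 0.042 (−0.18 to 0.26). The first bin had a log2 ratio of −0.62 (−1.21 to −0.073). The last bin, which starts at 295001, had one of 0.85 (0.51 to 1.18). Without it the window stood at −0.23 (−0.54 to 0.065), so the sign of the window rests on that bin. The segment between the 2 tagless stretches, from 293712 to 294380, held 45 starvation tags and 155 high phosphate tags by unmoved tag starts. This is 67.3 tags per kb in starvation and 232 in high phosphate, beside 102 and 235 tags per tagged kb on the rest of chromosome 3. The 4 kb on the left and on the right of the window had log2 ratios of −0.25 (−0.45 to −0.050) and −0.48 (−0.68 to −0.29). Neither interval overlaps that of HMR, which thus stood above its immediate surroundings, again through its last bin: without that bin the intervals overlap.

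Most starvation nucleosome positions in the windows were also found in high phosphate. Dyads, the midpoints of nucleosomes, were taken as peaks of tag density above the nuclear mean of the library. At HML there were 4 in starvation and 7 in high phosphate, at MAT 7 and 8, and at HMR 13 and 13. Within 20 bp of a high phosphate dyad lay 3, 6 and 10 of the starvation dyads at HML, MAT and HMR. Over chromosome 3 as a whole, 880 of 1147 starvation dyads (76.7%) lay that close. Of the high phosphate dyads, 3, 6 and 10 lay within 20 bp of a starvation dyad at HML, MAT and HMR, as did 62.2% over chromosome 3. At HML the count of partners depends on the limit and on depth. The 4 starvation dyads there rested on only 5, 7, 6 and 10 starvation tags in the 101 bp around them. The high phosphate dyad at 14018 lay just beyond 20 bp from the starvation dyad at 14041. The other high phosphate dyads without a partner, at 11410, 11563 and 14491, had only 1, 2 and 4 starvation tags in the 101 bp around them. At MAT the last nucleosome peaks with tags beside the tagless stretch lay at 198568 and 201318 in starvation and at 198564 and 201302 in high phosphate, and a further high phosphate peak at 201140 lay at the border of the stretch. At HMR the segment between the tagless stretches had dyads at 293882 and 294183 in starvation and at 293875 and 294184 in high phosphate. Smaller dyads were called at 294045 and 294327 in high phosphate only. Starvation density there was 0.957 and 0.241 times its mean, the first just under the limit for a dyad.

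The excess in the last bin of HMR was highest at 2 peaks. Around 295356, the 101 bp centred on the starvation dyad held 33 starvation tags and 21 high phosphate tags, a log2 ratio of 2.03 (1.20 to 2.89). Around 295542 there were 22 and 13 tags (2.13, 1.08 to 3.25), and high phosphate had no dyad above its mean. The starvation peaks reached 5.23 and 3.91 times the nuclear mean, against 1.47 and 0.995 in high phosphate. The next dyads on the right, at 295739 in starvation and 295758 in high phosphate, held 15 and 25 tags (0.64, −0.39 to 1.62), and those at 295910 and 295913 held 23 and 52 (0.20, −0.58 to 0.93). On the left, the dyads at 294688 and 294706 held 17 and 28 tags (0.66, −0.31 to 1.58). The interval of each of these 3 includes 0. The whole segment right of the tagless stretches, from 294586 to the window's end, was counted by unmoved tag starts. It held 154 starvation tags and 238 high phosphate tags (log2 ratio 0.75, 0.45 to 1.05). Among 1655 dyads of chromosome 3 with at least 20 tags in these 101 bp, the 2 peaks were 61st and 41st from the highest by log2 ratio, and 62 (3.75%) were at least 4-fold higher in starvation. They were named after their values were seen, and dyads called in starvation favour high starvation counts.

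Measures of nucleosome arrays on chromosome 3 lay within the range of the other chromosomes. The strand offset, which follows fragment length, measured 155 bp (starvation) and 140 bp (high phosphate), and the other 15 chromosomes spanned 153 to 157 bp and 139 to 146 bp. The centre-to-centre spacing of neighbouring nucleosomes was 165.9 bp (starvation) and 163.9 bp (high phosphate), with 159 to 168 bp and 161.3 to 171.2 bp on the others. Tag pairs 1 repeat apart were 1.52 times as frequent as distant pairs in starvation and 1.25 times in high phosphate, and the other chromosomes spanned 1.44 to 1.68 and 1.19 to 1.30. Spacing and fragment length thus did not set chromosome 3 apart. By the log2 ratio of all tags, the SD over bins and the share of bins at least 2-fold higher, it was 2nd after chromosome 1. Its neighbouring bins had the highest correlation of the 16. By its median bin it was 6th, by the share of bins above 0 7th, and by the share at least 2-fold lower 8th.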

How the data were processed

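Mononucleosomal DNA was sequenced from 1 starvation and 1 high phosphate culture, grouped by the sample titles. Per the labels' protocols, chromatin was digested with micrococcal nuclease and tags were placed on the October 2003 yeast release (sacCer1). The aligner is not given in the sources used here. A short description on both samples also mentions sonication, which the protocols leave out. The deposited files hold no count or other level, only a chromosome, position and strand for each uniquely placed tag. They contain 0 repeated rows, so each position and strand occurs once; 4.69% of these combinations were filled on chromosome 3 in starvation and 10.8% in high phosphate, which compresses dense sites more in the deeper library. The files hold 1012969 starvation tags and 2603132 high phosphate tags.

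The windows are 11001 to 15000 (HML), 198001 to 202000 (MAT) and 292001 to 296000 (HMR) on chromosome 3. Tags were moved 73 bp towards the fragment middle and counted in 1 kb bins. Segments beside or between tagless stretches were counted by tag starts that were not moved, so their counts can differ from those of bins and windows. Ratios were scaled to nuclear tags, with 95% exact conditional binomial (Clopper-Pearson) intervals; 2 tags may come from 1 molecule, and the spread between cultures is unknown. Binned ratios used a pseudocount of 0.5 and at least 20 tags. The interval of a window relative to the rest of the chromosome is the exact conditional interval of the odds ratio. Dyads were local maxima of Gaussian-smoothed density (SD 20 bp) with 120 bp or more between them. The strand offset was sought at 80 to 250 bp, and the repeat is the slope over 5 array peaks. Named bins are all bins of the windows, the 5 highest and 5 lowest by the interval bound nearest to 0, and the 3 longest runs each way. The members, windows and measures were chosen with earlier results of these data known. Gene names come from assembly R64 and carry no coordinates or values here; base composition and sequences were not analysed here. Scripts were tested on simulated data and ran in Python 3.11.15 with numpy 2.4.6 and scipy 1.17.1. Alternatives covered scaling, tag shift, depth, filled positions, bin size, tag minimum and window limits.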

Additional observations from a re-analysis of the deposited data

How the results depend on the processing

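No paired analysis was possible because the conditions have 1 library each, and no replicate could be left out. Of 89 recomputed summary values, 75 stayed within their counting interval, within the spread over chromosomes or within 1.5 times the count. The HML and MAT windows stayed within their intervals under every alternative run for them, and the 10 named bins under all 5 run for them. Scaling to the median 10 kb bin gave chromosome 3 a log2 ratio of 0.23, against 0.17. The SD over bins was 0.79 with the correction for filled positions, 0.84 in 500 bp bins, 0.65 in 2 kb bins and 0.77 with no minimum of tags, against 0.73. Counts of bins at least 2-fold higher and lower were 83 and 72 in 500 bp bins and 13 and 6 in 2 kb bins, against 31 and 26. Over all chromosomes the shares were 9.26% higher and 15.5% lower in 500 bp bins, and 4.14% and 3.27% in 2 kb bins. HMR widened by 1 kb on each side stood at −0.048, or −0.23 relative to the rest of the chromosome. HMR stood at 0.85 in its 1 bin without a tagless stretch and at −0.23 without that bin, which was added after the data were seen. The cause of these shifts was not tested beyond the bins that each setting adds or drops. No bin of HML or MAT was free of tagless stretches, so that setting gave no value there. With the deeper library thinned, also added for these measures, the high phosphate offset on chromosome 3 was 143 bp, against 140 bp, and the tagless stretches numbered 81, against 58. Of the starvation dyads in the windows, 19 of 24 were matched (79.2%), and 16 of 24 (66.7%) after thinning. At HML the depth, 47 starvation tags, limits the ratio to an interval of −1.50 to −0.56.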
